A study of Rattus norvegicus with 8 samples.

Results

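Actin, myosin and tubulin genes and their close partners were examined for their early response to TGF-beta-1, a transforming growth factor, in rat intestinal epithelial cells. Members were all features of the array whose platform symbol began with Acta, Actb, Actc, Actg, Actn, Actr, Arpc, Tpm, Myl, Myh, Cfl, Pfn, Tuba, Tubb or Tubg, apart from Mylip and the myosin light chain kinases, of which 1 feature (Mylk2) was left out. The rule found 62 features, which gave 52 genes among 9652 named genes and 17402 features after averaging by symbol. One of them, Cflar, an inhibitor of caspase-8 activation, shares only its first letters with the cofilins and is counted apart. Actb, Actg1, Acta2, Myl6 and Tuba1b were not measured under these names.

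On each of 8 two-channel arrays, RNA of cells exposed for 1 hr to TGF-beta-1 at 2 ng/ml was set against RNA of control cells from the same line. The parental RIE line had 4 arrays. The RIE-Ras line, parental cells stably transfected with pSV2-H-Ras(12V), which encodes a constitutively active human H-Ras, had the other 4, so that control and treated RIE-Ras cells both carried the oncogene. Samples are numbered within each line, but separate cultures are not stated, nor is it stated whether RIE-Ras is 1 clone. The p-values therefore rest on a spread between samples that may be technical.

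Actin filaments and microtubules are polymers of globular subunits that are added and lost at filament ends. Profilin feeds actin monomers to growing ends, the Arp2/3 complex starts branches, cofilin severs old filaments, tropomyosin coats filaments, and alpha-actinin bundles them. Bipolar myosin II slides filaments past each other under the control of its light chains. Microtubules are built from alpha- and beta-tubulin dimers, and the gamma-tubulin ring complex starts them. TGF-beta-1 is known for remodelling of the actin cytoskeleton in epithelial cells, which in many cell types is seen over hours to days.

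All values are taken as log2 ratios of treated over control RNA after each array was centred on its own median. They are changes relative to the typical feature, not levels, so they cannot show which cell type the RNA came from, and abundance cannot be compared between genes. The medians removed by centring ranged from 0.20 to 0.45, and the median of all features without centring stood at 0.35 in RIE cells, and 0.29 in RIE-Ras cells. Without centring all means are higher by about these amounts, so a small negative mean turns positive and a positive mean stays positive. The ribosomal protein genes, a class of abundant transcripts, had a median of -0.92 over 50 measured genes in RIE cells and of -0.79 in RIE-Ras cells. Their median was -0.205 on RIE replicate 1, between -0.68 and -1.66 on the other RIE arrays and between -0.61 and -0.98 on the RIE-Ras arrays. Their part in the values below was not tested, since no intensities were used.

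Among the 52 genes Tuba1a, an alpha-tubulin, was the 1 member that passed the test, in RIE-Ras cells. There it fell by 0.81 ± 0.13 on the log2 scale (n = 4, limma adjusted p = 0.0472), to 0.569 of control relative to the typical feature. The error is the moderated SE throughout. No member passed in RIE cells, where the smallest adjusted p was 0.0648 (Tuba1a), and none in the contrast of the lines, where it was 0.323 (Cfl2). Over all features 0.0747% passed in RIE cells, 0.419% in RIE-Ras cells and 0% in the contrast. At an unadjusted p under 0.05, 13 members lay below 0 in RIE cells and 1 above (Cflar), against 11.5% and 6.03% of all features. In RIE-Ras cells 7 lay below and 2 above, against 8.45% and 10.9%. The 13 of 52 members are a larger share than the background, the 7 of 52 a slightly larger one and the 2 of 52 a smaller one, and none of these shares was tested.

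In RIE cells 37 of 52 members had a negative mean, which was so for 50.8% of all features, and the median of the members was -0.19, where that of all features was -0.01. Without centring 15 of the 52 were negative and the median was 0.17. In RIE-Ras cells 27 members were negative, with a median of -0.03 (0.25 without centring), where all features had 49.2% negative and a median of 0.01. The member median was 0.08 on RIE replicate 1 and lay between -0.17 and -0.23 on the other RIE arrays. On the RIE-Ras arrays it lay between -0.20 and 0.06. RIE replicate 1 was the highest of the 4 RIE arrays for 29 of the 52 genes, or 55.8%, against 34.8% of all features. RIE replicate 4 was the lowest for 27, or 51.9%, against 33.1%.

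**Figure D1:**
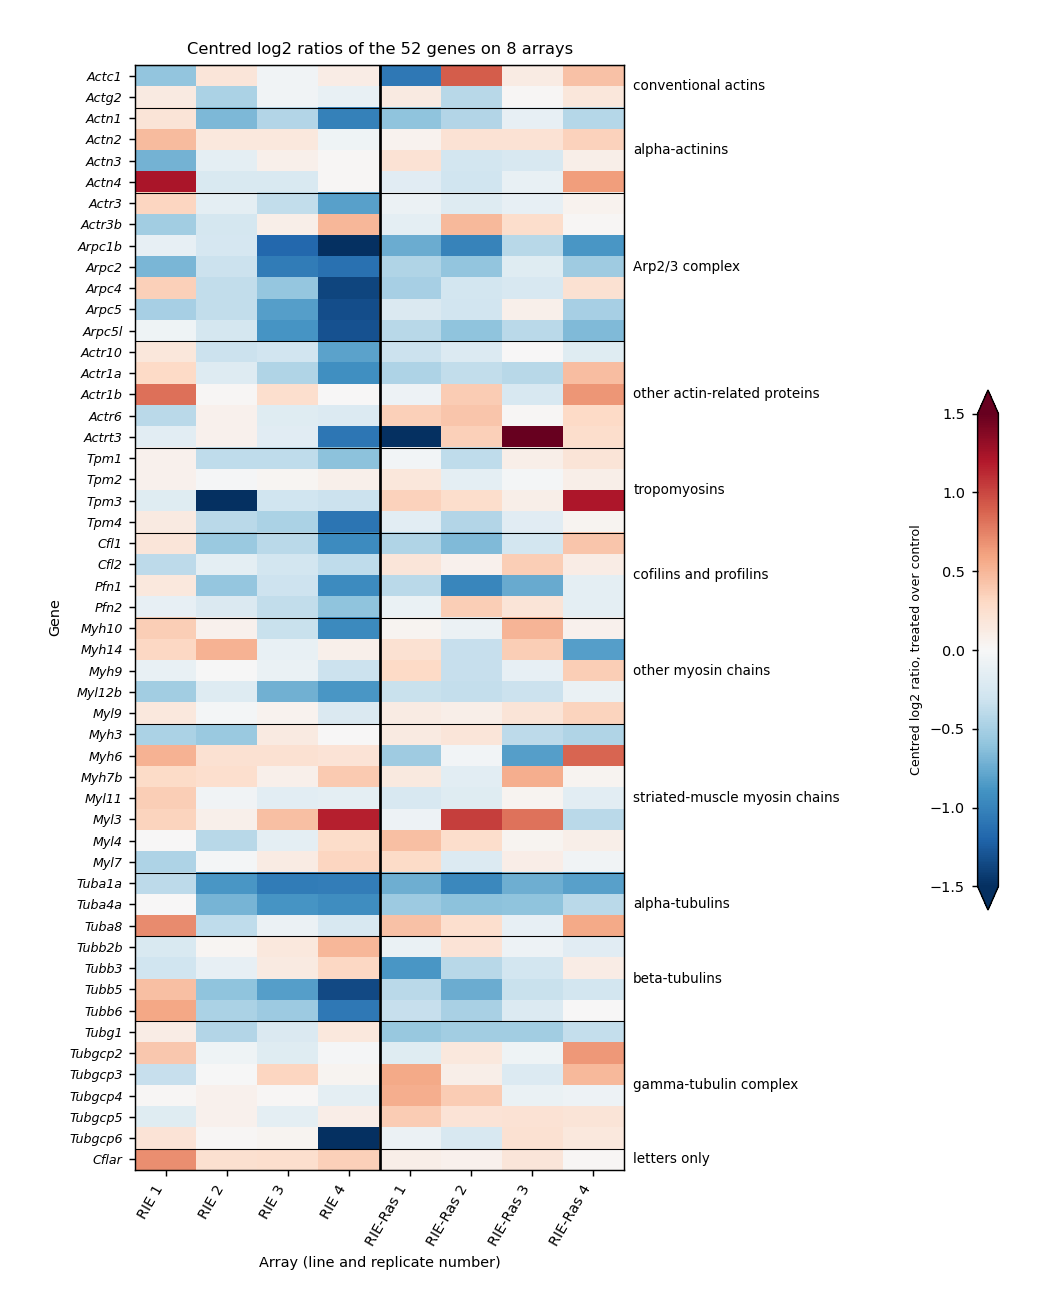
Heat map of centred log2 ratios of treated over control for each of the 52 genes (rows, grouped by role) on each of the 8 arrays (columns), with colours limited to between -1.5 and 1.5. Blue blocks stand at 6 of the 7 Arp2/3 genes (all but Actr3b) on RIE replicates 3 and 4 and at Tuba1a on all 8 arrays, whereas the striated-muscle myosin rows are mixed; without centring all ratios shift upwards by 0.20 to 0.45.

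In all, 10 members were below 0 on all 4 RIE arrays and 10 on all 4 RIE-Ras arrays, against 14.3% and 14.1% of all features. A further count, below 0 on all 8 arrays, gave 5 members, against 4.72%. These 5 were Tuba1a, the Arp2/3 subunits Arpc1b, Arpc2 and Arpc5l, and the myosin regulatory light chain gene Myl12b. Cflar was the 1 member of 52 above 0 on all 8 arrays, against 528 of 17402 features.

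The Arp2/3 complex, which nucleates branched actin networks, had, together with the alpha-tubulins, the lowest median of the role groups in RIE cells (-0.63 over 7 genes, lowest -0.80, highest -0.05). All 7 members had a negative mean there, against 50.8% of all features. At an unadjusted p under 0.05, 4 lay below 0, against 11.5% of all features, and none passed after adjustment. Without centring 5 of the 7 stayed below 0 (median -0.27). In RIE-Ras cells the median was -0.23, and 0.05 without centring. With centring 6 of 7 were negative and 3 lay below 0 at an unadjusted p under 0.05, against 49.2% and 8.45% of all features. These shares were not tested. By array the median of the 7 genes was -0.13 on RIE replicate 1, -0.27 on replicate 2, -0.83 on replicate 3 and -1.30 on replicate 4. The RIE-Ras arrays lay closer together, between -0.18 and -0.50.

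Arpc2, which with Arpc4 forms the core of the complex, stood at -0.69, -0.32, -1.05 and -1.12 on RIE replicates 1 to 4, and at -0.45, -0.59, -0.18 and -0.54 on RIE-Ras replicates 1 to 4. All 8 arrays were below 0 and the ranges of the lines overlapped. Its mean was -0.80 ± 0.15 in RIE (limma adjusted p = 0.0869) and -0.44 ± 0.15 in RIE-Ras cells (adjusted p = 0.167). Arpc1b, a WD-repeat subunit, read -0.13, -0.25, -1.17 and -1.57 in RIE and -0.75, -1.01, -0.42 and -0.87 in RIE-Ras cells. Its means of -0.78 ± 0.23 and -0.76 ± 0.23 were nearly equal, but the RIE arrays split into a pair near 0 and a pair far below, whereas the RIE-Ras arrays stayed together.

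Arpc5 and Arpc5l encode alternative forms of the smallest subunit. Arpc5 read -0.50, -0.36, -0.83 and -1.33 in RIE and -0.22, -0.29, 0.08 and -0.50 in RIE-Ras cells. Arpc5l read -0.06, -0.27, -0.88 and -1.30 in RIE and -0.42, -0.60, -0.41 and -0.67 in RIE-Ras cells. Both were below 0 on every RIE array, and Arpc5 had 1 RIE-Ras array above 0. Their RIE means were -0.76 ± 0.17 (adjusted p = 0.116) and -0.63 ± 0.19 (adjusted p = 0.168). Arpc4, at -0.49 ± 0.24, and Actr3, the Arp3 subunit gene, at -0.25 ± 0.16, were above 0 on RIE replicate 1 (0.36 and 0.32) and below 0 on the other RIE arrays. Without centring Actr3 stood at 0.10. Actr3b, a second Arp3 gene, was near 0 in both lines (-0.05 ± 0.18 and 0.16 ± 0.18).

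Actr10, Actr1a and Actr1b encode subunits of dynactin, the cofactor of dynein, and Actr6 a subunit of a chromatin remodelling complex. Actr10 and Actr1a stood at -0.31 ± 0.15 and -0.32 ± 0.21 in RIE cells (0.05 and 0.04 without centring) and at -0.18 and -0.20 in RIE-Ras cells, whereas Actr1b was positive in both lines at 0.28 and 0.18. Actrt3, a gene known from testis, had the widest spread of all members, with -2.87 on RIE-Ras replicate 1 and 3.91 on RIE-Ras replicate 3 around a mean of 0.41 ± 0.83.

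Of the conventional actins, 2 were measured under these names, the cardiac gene Actc1 and the smooth muscle gene Actg2. Their means were -0.09 ± 0.28 and -0.13 ± 0.14 in RIE and 0.10 ± 0.28 and -0.02 ± 0.14 in RIE-Ras cells, within the spread between arrays. Among the alpha-actinins, the non-muscle gene Actn1 read 0.20, -0.68, -0.44 and -1.01 in RIE (mean -0.48 ± 0.18, adjusted p = 0.231) and -0.60, -0.44, -0.12 and -0.43 in RIE-Ras cells (mean -0.40 ± 0.18). RIE replicate 1 was thus the 1 array above 0. Actn4, the other non-muscle form, was at 1.22 on RIE replicate 1 and between -0.23 and 0.02 on the other RIE arrays. The sarcomeric forms Actn2 and Actn3 had means between -0.19 and 0.21.

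The tropomyosins were measured by 4 genes, with no member past the threshold. Tpm1 read 0.06, -0.38, -0.38 and -0.62 in RIE cells (mean -0.33 ± 0.14, adjusted p = 0.270) and -0.04, -0.38, 0.09 and 0.19 in RIE-Ras cells (mean -0.04 ± 0.14). Tpm4 read 0.13, -0.41, -0.48 and -1.10 in RIE (mean -0.46 ± 0.18, adjusted p = 0.239) and -0.16, -0.44, -0.17 and 0.04 in RIE-Ras cells (mean -0.18 ± 0.18). In both genes RIE replicate 1 was the 1 RIE array above 0, and without centring the RIE mean of Tpm1 was 0.03 and the RIE-Ras mean of Tpm4 was 0.10. Tpm2 stayed near 0, at 0.04 and 0.02. Tpm3 read -0.18, -3.95, -0.30 and -0.32 in RIE cells, so its mean of -1.19 ± 0.57 rested on RIE replicate 2.

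The profilin and cofilin genes were negative in RIE cells in 4 of 4 cases, between -0.30 and -0.43, and 2 of the 4 stayed below 0 without centring. With centring 50.8% of all features were negative in RIE cells. Pfn1, the ubiquitous profilin, read 0.16, -0.58, -0.31 and -0.94 in RIE (mean -0.42 ± 0.19, adjusted p = 0.308) and -0.40, -0.98, -0.75 and -0.15 in RIE-Ras cells (mean -0.57 ± 0.19, adjusted p = 0.171). All 4 RIE-Ras arrays were below 0. Cfl1, the non-muscle cofilin, read 0.18, -0.55, -0.41 and -0.94 in RIE (mean -0.43 ± 0.21) and -0.45, -0.66, -0.28 and 0.41 in RIE-Ras cells (mean -0.25 ± 0.21, 0.04 without centring). The muscle cofilin Cfl2 and the profilin Pfn2 were lower in RIE than in RIE-Ras cells and are described with the contrast of the lines.

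**Figure D2:**
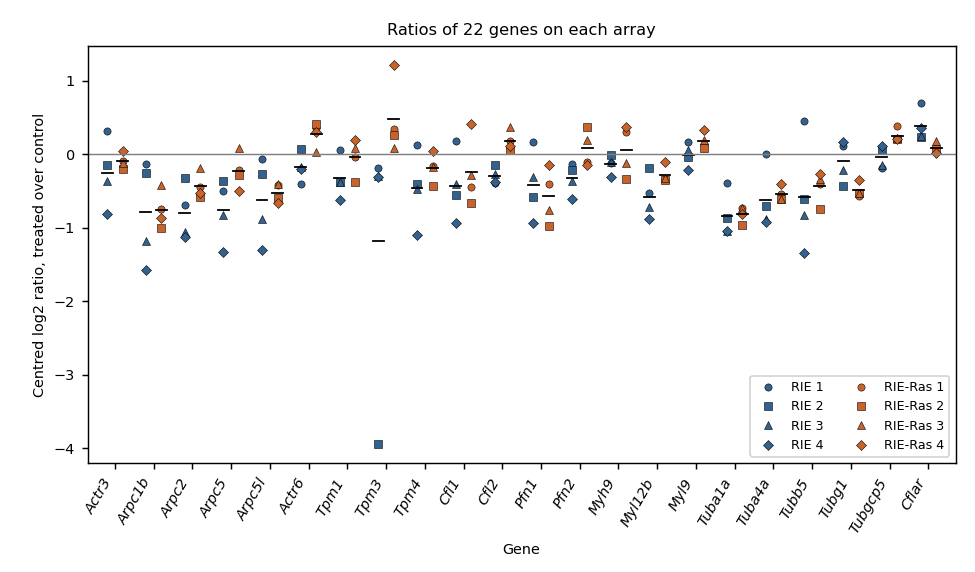
Centred log2 ratios of treated over control for 22 genes (horizontal axis) on each array, with RIE in blue and RIE-Ras in orange, 1 marker shape per replicate number and a black bar at the mean of each line's 4 arrays. Tuba1a and Arpc2 lie below 0 on all 8 arrays, and the Tpm3 point at -3.95 is RIE replicate 2.

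Among the myosin genes outside striated muscle, Myl12b, a regulatory light chain of non-muscle myosin II, had the lowest mean. It read -0.53, -0.19, -0.72 and -0.88 in RIE (mean -0.58 ± 0.13, adjusted p = 0.115) and -0.34, -0.35, -0.32 and -0.10 in RIE-Ras cells (mean -0.28 ± 0.13, adjusted p = 0.268). All 8 arrays were below 0, and without centring the means were -0.22 and 0.00. Myl9, a regulatory light chain known from smooth muscle and non-muscle cells, was near 0 in RIE cells at 0.16, -0.03, 0.05 and -0.22 (mean -0.01 ± 0.10). In RIE-Ras cells it was above 0 on all 4 arrays at 0.12, 0.08, 0.19 and 0.33 (mean 0.18 ± 0.10, adjusted p = 0.365). The non-muscle heavy chain genes did not pass the test in either line. Myh9 read -0.12, -0.01, -0.10 and -0.32 in RIE (mean -0.14 ± 0.14, 0.22 without centring) and 0.30, -0.34, -0.12 and 0.37 in RIE-Ras cells (mean 0.05 ± 0.14). Myh10 stood at -0.21 ± 0.20 and 0.13 ± 0.20, and Myh14 at 0.20 ± 0.20 and -0.14 ± 0.20.

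The striated-muscle chains Myh3, Myh6, Myh7b, Myl3, Myl4, Myl7 and Myl11, whose proteins build the sarcomere, had no member at an unadjusted p under 0.05 in either line. Over all features 11.5% lay below 0 and 6.03% above at that threshold in RIE cells, and 8.45% and 10.9% in RIE-Ras cells. For 7 genes a count of 0 is near these shares. The medians of these chains were 0.01 in RIE (range -0.22 to 0.51) and 0.03 in RIE-Ras cells (range -0.14 to 0.34). Grouped with Actc1, Actn2 and Actn3, a grouping made after the values were seen, these 10 sarcomeric isoforms had 5 of 10 negative means in RIE cells and a median of -0.00. The other 41 cytoskeleton genes had 32 of 41 negative and a median of -0.31 there, which was 0.05 without centring. In RIE-Ras cells the medians lay close together, at 0.07 for the 10 isoforms and -0.04 for the other 41, of which 23 were negative. Over all features 50.8% of means were negative in RIE cells and 49.2% in RIE-Ras cells. The difference between the 10 isoforms and the other 41 genes was not tested. By array the median of the 41 genes was 0.06, -0.23, -0.28 and -0.62 on RIE replicates 1 to 4, in the same order as the ribosomal protein genes, and -0.16, -0.29, -0.12 and 0.06 on RIE-Ras replicates 1 to 4, where the ribosomal protein genes had a different order.

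**Figure D3:**
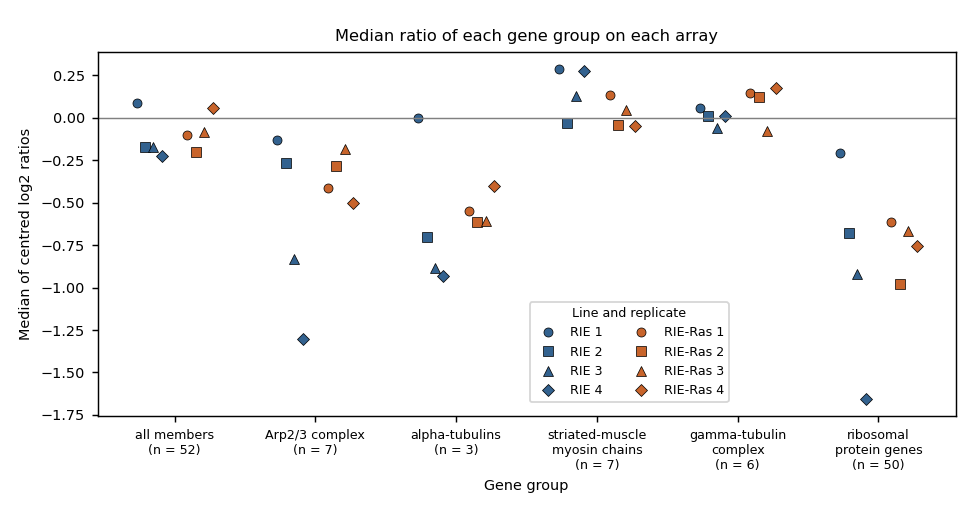
Median of the centred log2 ratios of 5 member groups and of the ribosomal protein genes on each array (RIE blue, RIE-Ras orange, 1 marker shape per replicate number), with the number of genes under each group. RIE replicate 1 is the highest RIE array in the Arp2/3, alpha-tubulin and ribosomal protein groups, and RIE replicate 4 the lowest; without centring all medians shift upwards by 0.20 to 0.45.

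Alpha-tubulin was represented by Tuba1a, a form known from developing neurons, Tuba4a, which is widely expressed, and Tuba8, a divergent form of restricted expression. Tuba1a and Tuba4a had low ratios in both lines, and Tuba8 did not. Their promoters, 250 bases before to 50 after the annotated start (RefSeq, GRCr8), are shown because the single call fell in this family and its members differ. They lie at chr7:131995770-131996069 on the minus strand, chr9:84162535-84162834 on the minus strand and chr4:156112022-156112321 on the plus strand, and are written from 5′ to 3′ on the strand of the gene. Capitals mark, on either strand, CAGAC, the core that Smad proteins bind, CCAAT, the core that NF-Y binds, and GGGCGG, the core that Sp1 binds.
Tuba1a: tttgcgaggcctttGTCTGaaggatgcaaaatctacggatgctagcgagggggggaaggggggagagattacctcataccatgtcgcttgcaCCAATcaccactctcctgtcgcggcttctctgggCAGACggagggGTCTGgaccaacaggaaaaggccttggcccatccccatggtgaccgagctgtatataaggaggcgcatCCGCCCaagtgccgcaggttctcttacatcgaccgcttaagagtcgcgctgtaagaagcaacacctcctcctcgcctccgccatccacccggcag
Tuba4a: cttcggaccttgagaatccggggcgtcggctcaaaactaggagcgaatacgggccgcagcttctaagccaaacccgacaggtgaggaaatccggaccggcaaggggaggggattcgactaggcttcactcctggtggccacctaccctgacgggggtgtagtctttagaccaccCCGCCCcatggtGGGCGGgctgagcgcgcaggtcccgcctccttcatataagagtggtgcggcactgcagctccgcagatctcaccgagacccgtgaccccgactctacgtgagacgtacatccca
Tuba8: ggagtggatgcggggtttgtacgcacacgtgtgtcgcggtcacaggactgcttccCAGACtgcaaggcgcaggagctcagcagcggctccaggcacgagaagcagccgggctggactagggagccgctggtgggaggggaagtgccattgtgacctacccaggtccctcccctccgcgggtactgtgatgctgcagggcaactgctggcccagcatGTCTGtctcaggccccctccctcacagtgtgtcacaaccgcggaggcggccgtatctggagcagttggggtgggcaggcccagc
These windows hold 3, 0 and 2 copies of CAGAC, 1, 0 and 0 of CCAAT and 1, 2 and 0 of GGGCGG, with no overlap between motifs. Of 27457 promoters of the same length, 13720 held CAGAC, 37.7% CCAAT and 34.9% GGGCGG. Of the 49 members with a promoter sequence 23 held CAGAC, 38.8% CCAAT and 57.1% GGGCGG. The CArG box, the site of serum response factor, was found in 2 of the 49, Actc1 and Myl3, and in 1.64% of all promoters. A match of letters describes the window and shows no binding.

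Tuba1a read -0.39, -0.87, -1.05 and -1.04 on RIE replicates 1 to 4 and -0.74, -0.97, -0.73 and -0.82 on RIE-Ras replicates 1 to 4. All 8 arrays were below 0, and the RIE-Ras arrays lay within the range of the RIE arrays. The mean was -0.84 ± 0.13 in RIE cells, or 0.560 of control relative to the typical feature (limma adjusted p = 0.0648). In RIE-Ras cells it was -0.81 ± 0.13 (adjusted p = 0.0472). The means without centring were -0.48 and -0.53. The RIE-Ras call held in 7 of 18 alternatives (adjusted p from 0.0176 to 0.156), and the mean over the 18 ran from -0.995 to -0.53. It was lost without RIE replicate 2, 3 or 4, which enter the shared spread, and without each of the RIE-Ras replicates (adjusted p from 0.058 to 0.119). Without RIE replicate 1 the RIE mean was -0.99 and passed (adjusted p = 0.0393).

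Tuba4a read -0.00, -0.70, -0.88 and -0.93 in RIE (mean -0.63 ± 0.15, adjusted p = 0.133) and -0.55, -0.61, -0.61 and -0.40 in RIE-Ras cells (mean -0.54 ± 0.15, adjusted p = 0.127). The RIE-Ras arrays were close together, and RIE replicate 1 lay apart from the other RIE arrays. Without that array the RIE mean passed (-0.84, adjusted p = 0.0479). Tuba8 stood at 0.00 ± 0.19 in RIE cells, and 0.29 ± 0.19 in RIE-Ras cells.

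Of the 4 beta-tubulins, Tubb5 and Tubb6, which are widely expressed, had negative means, and Tubb2b and Tubb3, known from neurons, lay nearer 0 in RIE cells. Tubb5 read 0.45, -0.61, -0.83 and -1.35 in RIE (mean -0.58 ± 0.25, adjusted p = 0.267) and -0.40, -0.74, -0.34 and -0.27 in RIE-Ras cells (mean -0.44 ± 0.25, adjusted p = 0.368). Its RIE arrays ran from above 0 on replicate 1 to far below on replicate 4, and its RIE-Ras arrays were all below 0. Tubb6 stood at -0.38 ± 0.23 and -0.26 ± 0.23, with RIE replicate 1 at 0.58. Tubb3 stood at 0.01 ± 0.17 in RIE cells, and -0.36 ± 0.17 in RIE-Ras cells (adjusted p = 0.274), and Tubb2b at 0.11 ± 0.13 and -0.04 ± 0.13.

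In the gamma-tubulin complex, Tubg1, gamma-tubulin itself, read 0.11, -0.44, -0.22 and 0.16 in RIE cells (mean -0.10 ± 0.12) and -0.57, -0.52, -0.52 and -0.35 in RIE-Ras cells (mean -0.49 ± 0.12, limma adjusted p = 0.0925, -0.21 without centring). The RIE-Ras arrays were all below 0 and close together, and RIE replicate 2 lay within their range. The 5 measured partner genes, Tubgcp2 to Tubgcp6, did not share this. Their means lay between -0.31 and 0.03 in RIE and between 0.02 and 0.25 in RIE-Ras cells. Tubgcp5 was above 0 on all 4 RIE-Ras arrays (0.38, 0.21, 0.22 and 0.20, mean 0.25 ± 0.10, adjusted p = 0.216).

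**Figure D4:**
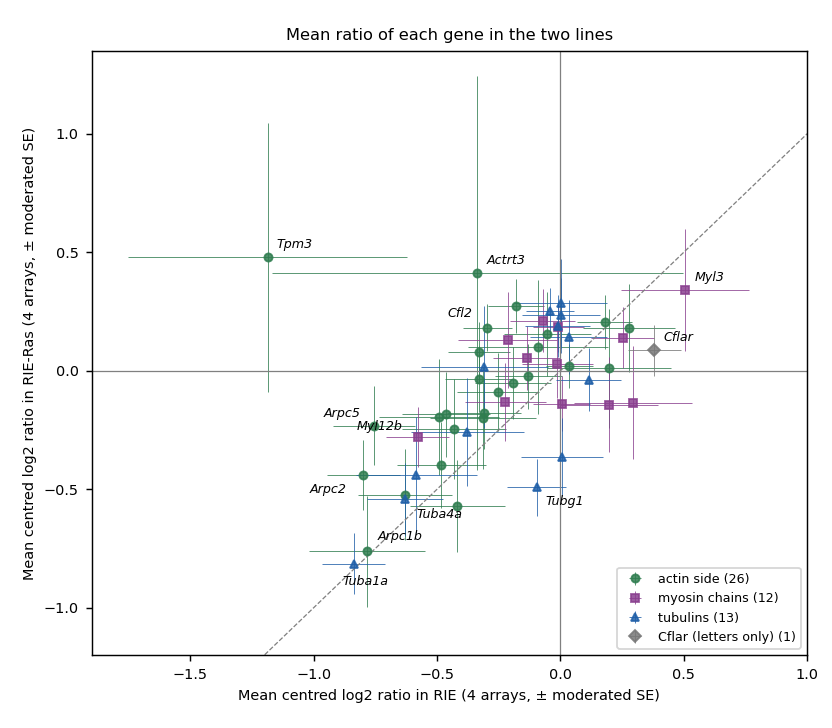
Mean centred log2 ratio of each of the 52 genes in RIE (horizontal) and RIE-Ras cells (vertical), 4 arrays each, with bars of 1 moderated SE, coloured by family; the dashed line marks equal means. Tuba1a and Arpc1b lie near the line at about -0.8 on both axes, and Tpm3 and Cfl2 have a negative RIE mean and a positive RIE-Ras mean; without centring all points shift upwards on both axes and the RIE mean of Cfl2 is positive.

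The contrast of the lines asked whether the response of these genes differed between RIE-Ras and RIE cells. Activated Ras cannot be told apart in it from other differences between the lines or their arrays. No member passed, and 3 had an unadjusted p under 0.05, 2 with higher ratios in RIE-Ras cells (Cfl2 and Actr6) and 1 with lower (Tubg1), against 6.8% and 3.87% of all features. The median difference of the members was 0.13, where that of all features was 0.04. Without RIE replicate 4 it was 0.0345, close to the 0.0275 of all features. Without RIE replicate 1 it was 0.24, against 0.05, and without centring 0.06, against -0.03. Of the 52 differences 13 were negative and 39 positive, a larger share above 0 than over all features, where 44.6% were negative. No overlap between the RIE and RIE-Ras arrays was seen for 3 genes higher in RIE-Ras cells (Cfl2, Tpm3 and Tubgcp5), against 5% of all features, and for 1 that was lower (Cflar), against 2.5%. The counts at an unadjusted p under 0.05 and of arrays without overlap are thus near or below the background shares.

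Cfl2 read -0.39, -0.14, -0.27 and -0.38 in RIE and 0.18, 0.06, 0.37 and 0.11 in RIE-Ras cells. The average of its 2 features was below 0 on every RIE array and above 0 on every RIE-Ras array. On 1 feature alone RIE replicate 2 stood at 0.07 and RIE-Ras replicate 4 at -0.03, so the lines overlapped there. On the other feature RIE-Ras replicates 1 and 2 were below 0, at -0.10 and -0.17. The features differed between the lines by 0.53 and 0.43. The difference was 0.48 ± 0.14 (95% interval 0.16 to 0.80, limma adjusted p = 0.323). Without centring the RIE mean was 0.06 and the RIE-Ras mean 0.47, so that both were then positive. Pfn2 read -0.13, -0.22, -0.37 and -0.60 in RIE and -0.10, 0.37, 0.19 and -0.15 in RIE-Ras cells. The arrays overlapped, and the lines differed by 0.41 ± 0.18 (adjusted p = 0.468). Actr6 read -0.40, 0.07, -0.18 and -0.20 in RIE and 0.35, 0.41, 0.02 and 0.30 in RIE-Ras cells. Its difference was 0.45 ± 0.16 (adjusted p = 0.392), and the lines overlapped through RIE replicate 2.

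Tpm3 read 0.34, 0.27, 0.09 and 1.22 in RIE-Ras cells, all above the RIE arrays. The difference of 1.66 ± 0.80 (adjusted p = 0.502) became 0.74 without RIE replicate 2. For Tubg1 the difference was -0.40 ± 0.17 (95% interval -0.79 to -0.01, adjusted p = 0.462), and for Tubgcp5 it was 0.29 ± 0.14 (adjusted p = 0.499). The features of Tubgcp5 disagreed, with differences of 0.59 and -0.0008, and the arrays of the second feature overlapped between the lines. Arpc5 differed by 0.52 ± 0.24 (adjusted p = 0.478). Cflar read 0.69, 0.24, 0.25 and 0.35 in RIE (mean 0.38 ± 0.11, adjusted p = 0.150) and 0.09, 0.06, 0.18 and 0.01 in RIE-Ras cells (mean 0.09 ± 0.11). The contrast of Cflar was -0.30 ± 0.15 (adjusted p = 0.530). For Tuba1a the 95% interval of the difference ran from -0.39 to 0.44, and for Arpc1b from -0.73 to 0.78, so differences of that size are compatible with these arrays.

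For 9 members with several features the features could be compared. Their means had opposite signs for 7 of the 9 genes in RIE cells and for 2 in RIE-Ras cells, and the gap between features had a median of 0.46 in RIE cells, and 0.14 in RIE-Ras cells. The widest was that of Tubgcp3 in RIE cells, with feature means of -0.42 and 0.43. Cfl2 and Tubb6 were the 2 genes whose features had the same sign in each line. Actg2 (-0.51 and 0.25) and Actn2 (-0.18 to 0.42) also disagreed in RIE cells, so the averages of these genes hide features of different sign.

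Of 60 listed regulators of actin outside the member families 41 were measured, and none passed in any comparison. In RIE cells 8 lay below 0 and 2 above at an unadjusted p under 0.05, where the shares over all features were 11.5% and 6.03%. In RIE-Ras cells 4 lay below and 6 above, against 8.45% and 10.9%. In the contrast 7 were higher in RIE-Ras cells and 1 lower, against 6.8% and 3.87%. Tmsb4x, the monomer-sequestering thymosin beta 4, stood at -1.04 ± 0.20 in RIE (adjusted p = 0.0989) and -0.85 ± 0.20 in RIE-Ras cells (adjusted p = 0.0852), with all 8 arrays below 0. Cnn3, a calponin, stood at -0.78 ± 0.15 in RIE cells (adjusted p = 0.0930). Of the genes that control myosin light chain phosphorylation, Ppp1r12a, the targeting subunit of myosin phosphatase, was above 0 on all 8 arrays (0.41 ± 0.10 and 0.62 ± 0.10, adjusted p = 0.133 and 0.0508). Ppp1cb, its catalytic subunit, was below 0 on all RIE arrays (-0.67, -0.27, -0.34 and -0.20) and above 0 on all RIE-Ras arrays (0.37, 0.29, 0.62 and 0.67). The difference was 0.86 ± 0.17 (adjusted p = 0.228), and 5% of all features had every RIE-Ras array above the RIE arrays. Centring removed 0.38, 0.37 and 0.45 on RIE replicates 2, 3 and 4, so without centring Ppp1cb lay above 0 on these arrays. Rhob, a small GTPase, differed by 0.47 ± 0.17 (0.21 in RIE and 0.68 in RIE-Ras cells) and Diaph3, a formin, by 1.02 ± 0.27.

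Of 36 listed microtubule regulators 26 were measured, and none passed. At an unadjusted p under 0.05, 7 lay below 0 and 0 above in RIE cells, against 11.5% and 6.03% of all features, and 4 below and 2 above in RIE-Ras cells, against 8.45% and 10.9%. In the contrast 1 was higher in RIE-Ras cells and 1 lower, against 6.8% and 3.87%. The dynein intermediate chain gene Dync1i2 read -0.90, -0.44, -0.70 and -1.41 in RIE (mean -0.86 ± 0.15, adjusted p = 0.0800) and 0.00, -0.09, -0.04 and 0.18 in RIE-Ras cells, so the lines did not overlap (difference 0.88 ± 0.21). Of all features 5% had every RIE-Ras array above the RIE arrays. Dynll2, a dynein light chain, read 0.61, 0.01, 0.08 and -0.05 in RIE cells, so its mean of 0.16 ± 0.13 rested on RIE replicate 1. In RIE-Ras cells it read -0.52, -0.79, -0.51 and -0.37 (mean -0.55 ± 0.13). The difference between the lines thus had the opposite sign to that of Dync1i2. Stmn1, which sequesters tubulin dimers, was at -0.89 ± 0.22 in RIE cells (adjusted p = 0.133). Of 14 listed genes of the chaperonin and prefoldin, which fold actin and tubulin, 7 were measured, and none passed the threshold. The median was -0.49 in RIE cells (-0.13 without centring) and -0.32 in RIE-Ras cells (-0.04). In each line 6 of the 7 were negative, against 50.8% of all features in RIE and 49.2% in RIE-Ras cells. At an unadjusted p under 0.05, 5 lay below 0 and 0 above in RIE cells, against 11.5% and 6.03%. In RIE-Ras cells 3 lay below and 0 above, against 8.45% and 10.9%. In the contrast 1 was higher and 1 lower, against 6.8% and 3.87%. Cct5 stood at -0.86 ± 0.15 in RIE (adjusted p = 0.0800), and Tcp1 at -0.69 ± 0.19 in RIE-Ras cells (adjusted p = 0.121).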

How the data were processed

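The deposited values were taken as log2 ratios of treated over control signal, 1 per feature and array. The direction was read from the labels, whose descriptions say that treated cells were compared to control cells. The sample titles name the untreated cells first, and neither states which signal was divided by which. The log2 scale was found from the values. The sources used here do not name dyes, dye swaps, background correction or normalization. Feature names come from the platform annotation, brought up to date with RefSeq (GRCr8). Each array was centred on its median, features of 1 symbol were averaged, and all 8 arrays were fitted in R 4.3.3 with limma 3.58.1 (lmFit, eBayes), which tested each line's mean against 0 and the RIE-Ras mean against the RIE mean. P-values are two-sided and were adjusted by Benjamini-Hochberg across 17402 features, with a threshold of 0.05. Both lines share the estimate of the spread. The number of arrays limits the precision.

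Members and lists were chosen with earlier results of these data known. Values on every array are given for members past the threshold, the 8 members with the smallest p per comparison and a fixed set, and of each list of other genes for some of the 4 with the smallest p. Other members shown array by array, such as Actn1, were chosen after their values were seen. The striated-muscle myosin chains and other role groups were set by symbol. Marker lists of epithelium (4 genes measured, median 0.02 in RIE and 0.10 in RIE-Ras cells), smooth muscle or fibroblast (4, -0.18 and 0.08) and striated muscle (2, 0.12 and -0.06) are ratios too. Same-numbered arrays of the lines had deviations correlated with r between -0.054 and 0.0654, and the arrays were not paired by number. These values cannot show whether same-numbered arrays shared a culture or batch, which is not stated. RIE replicates 3 and 4 correlated with r = 0.692 across features but were not identical, and were kept as 2 arrays. The other pairs of RIE arrays had r between 0.079 and 0.362, and the pairs of RIE-Ras arrays between -0.052 and 0.348. RIE replicates 3 and 4 were thus more alike than any other pair within a line, and whether they are independent is not stated.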

Additional observations from a re-analysis of the deposited data

Results flagged for a closer look

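In 128 sets of 4 arrays, over the 52 genes and the medians of their groups in each line, 6 sets (4.69%) had an array far from the other 3, where chance alone gives about 1 in 20. Tpm3 was at -3.95 on RIE replicate 2, against -0.32 to -0.18 on the other RIE arrays. Tubgcp6 was at -1.504 on RIE replicate 4, against 0.02 to 0.21. Myh6 was at 0.52 on RIE replicate 1, against 0.21 to 0.23. Actr1a was at 0.46 on RIE-Ras replicate 4, against -0.46 to -0.37, and Myl12b at -0.10 on the same array, against -0.35 to -0.32. Tubgcp5 was at 0.38 on RIE-Ras replicate 1, against 0.20 to 0.22.

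Cfl2 and Tpm3 were below 0 on every RIE array and above 0 on every RIE-Ras array, with differences of 0.48 and 1.66. For Cfl2 this holds for the average of its features and not for each feature alone. Neither difference passed in limma (adjusted p = 0.323 and 0.502), and without centring the RIE mean of Cfl2 was above 0.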

How the results depend on the processing

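Scaling was varied (none, equal spread, quantile), as were feature averaging, repeated folds, a limit on ratios of -3 and 3, the averaging of RIE replicates 3 and 4, the replicate block, array weights, robust eBayes, separate fits, the threshold and the arrays included. The count of members called in RIE cells, 0, became 8 without centring (7 of them higher; 23.3% of all features), 2 after quantile normalization (Arpc2 and Arpc5; 0.546%), 24 with array weights (8.70 for RIE replicate 3; 37.6%), 2 at an adjusted p under 0.10 (Arpc2 and Tuba1a; 0.759%), 2 without RIE replicate 1 (Tuba1a and Tuba4a; 0.172%) and 0 without any other array. In RIE-Ras cells the count of 1 became 12 without centring (11 of them higher), where 21.0% of all features were called, 2 at an adjusted p under 0.10 (3.87%), and 0 with equal spread, quantile normalization, RIE replicates 3 and 4 averaged, the line fitted alone or the replicate block; leaving out an array gave 0 to 1. Whether same-numbered arrays shared a culture or batch is not stated, and with the block no member and no other feature was called in any comparison. The contrast had 0 under each alternative. The member medians became 0.17 in RIE and 0.25 in RIE-Ras cells without centring.

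Of the 22 genes shown by array, negative RIE means turned positive without centring for Actr3 (0.10), Actr6 (0.18), Cfl2 (0.0601), Myh9 (0.22), Myl9 (0.35), Pfn2 (0.0276), Tpm1 (0.0273), Tubg1 (0.26) and Tubgcp5 (0.32). Negative RIE-Ras means did so for Actr3 (0.19), Arpc5 (0.053), Cfl1 (0.0386), Myl12b (0.0042), Tpm1 (0.25) and Tpm4 (0.10). Myl9 in RIE, at -0.01, became 0.0035 with equal spread, 0.0091 after quantile normalization, 0.0164 with RIE replicates 3 and 4 averaged and 0.0302 with array weights, and leaving out arrays gave -0.0647 to 0.0614. Myh9 in RIE-Ras became -0.0288 with array weights, and -0.0524 to 0.1859 when arrays were left out. When arrays were left out, Tpm1 in RIE-Ras ran from -0.1105 to 0.0798, Pfn2 in RIE-Ras from -0.0183 to 0.1537, Tubg1 in RIE from -0.1817 to 0.0165 and Tubgcp5 in RIE from -0.0897 to 0.0067. On 1 of its features alone Tubgcp5 had 0.22 in RIE and -0.0008 in the contrast. Of 942 values of these genes under alternatives, 873 kept their sign and their side of the threshold. A further 30 changed sign, among them Myl9 in RIE cells without centring, which also came past the threshold (limma adjusted p = 0.0343). Of those that kept their sign, 28 came past the threshold and 11 fell short of it. All 11 were those of Tuba1a in RIE-Ras cells, the 1 call. Many alternatives, such as leaving out an array of the other line, cannot change a mean, and most values started uncalled. The 873 are therefore no measure of robustness. The cause of these changes was not tested. The precision is limited by 4 arrays a line, and signal over background was not used.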
